A study of Homo sapiens with 2 samples.

Results

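The genes described here encode the subunits of the vacuolar proton pump (V-ATPase) and the core autophagy (ATG) proteins. They were taken as all protein-coding genes of GENCODE release 44, lifted to hg19, whose symbol begins with ATP6V or with ATG followed by a digit. The rule matched 42 genes, of which 41 had a protein-coding transcript start among 19794 coding genes in all. The readthrough gene ATP6V1G2-DDX39B had none and was given no values. The 41 genes comprised 13 genes of the soluble V1 sector, 9 genes of the membrane V0 sector, ATP6V1FNB and 18 ATG genes. ATP6V1FNB is named as the neighbour of ATP6V1F and is not a pump subunit.

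NRF-1 binding was mapped by ChIP-seq in U251, an established human glioblastoma cell line, after transfection with a control siRNA (siControl) or an siRNA against the cofactor AATF (siAATF). Every sample label names U251, although the design text of the series names U138. There was 1 peak list per condition, with 18014 peaks in siControl and 18454 in siAATF, so no spread between replicates and no test between conditions could be computed. Peak lists carry no RNA levels, so neither the depletion of AATF nor the identity of the cells was checked, and the depth of the libraries was unknown.

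The V-ATPase uses ATP to pump protons into lysosomes and other compartments, with a V1 sector that hydrolyses ATP and a V0 sector that conducts protons through the membrane. ATG proteins build the autophagosome, which encloses cytoplasm and delivers it to the acidified lysosome. Several subunits exist as a broadly expressed isoform and as isoforms made mainly in kidney, testis, brain or bone. NRF-1 is a transcription factor best known at the promoters of nuclear genes that serve the mitochondria. The factor TFEB is known to act on lysosomal and autophagy genes through a palindrome called the CLEAR element.

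Promoters with both kinds of palindrome are shown first, because they carry an NRF-1 word and a CLEAR word under 1 NRF-1 peak. The NRF-1 core searched was the half-site GCGCA followed directly by its reverse complement TGCGC, and the CLEAR palindrome was GTCAC followed directly by GTGAC. Each palindrome reads the same on both strands, and up to 1 mismatch was allowed. Sequences are from the GRCh37 (hg19) assembly, 5′ to 3′ in the direction of the gene, and capitals mark the matched bases. The positions given are those of the printed stretches, with the flanking bases included. In ATP6V0D1, on the minus strand at chr16:67515082-67515131, 2 CLEAR words flanked a core without a base between them. The CLEAR words were centred 56 and 36 bases upstream of the canonical start, and that core 46 bases upstream. The CLEAR word centred 36 bases upstream had its mismatch within the central bases CACGTG. Another core word of ATP6V0D1, centred 148 bases upstream, is not shown. In ATP6V1G1, on the plus strand at chr9:117349979-117350030, an exact CLEAR palindrome was centred 55 bases and a core 33 bases upstream of the start.
ATP6V0D1 CLEAR, core, CLEAR: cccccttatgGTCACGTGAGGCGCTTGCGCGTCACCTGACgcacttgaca
ATP6V1G1 CLEAR: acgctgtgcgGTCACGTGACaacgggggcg
ATP6V1G1 core: cgggggcgaaGCGCAGGCGCaaggagcaag

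ATG5 and ATP6V1D held a core and a CLEAR word at greater distances. The mismatch of each of these CLEAR words fell within the central bases CACGTG. In ATG5, on the minus strand, the core lay at chr6:106773757-106773786, centred 136 bases upstream of the start, and the CLEAR word at chr6:106773681-106773710, centred 60 bases upstream. In ATP6V1D, also on the minus strand, a core lay at chr14:67827031-67827060, centred 524 bases upstream, and the CLEAR word at chr14:67826512-67826541, 5 bases upstream. Of the 3 overlapping or adjacent core words of ATP6V1D, the one farthest from the start is shown.
ATG5 core: tgccccgttgGCGCATGCTCaagagcgact
ATG5 CLEAR: accacgtgggGTCTCGTGACgtcatctccg
ATP6V1D core: tcactccaccGCGCATGCGGaacctcctcg
ATP6V1D CLEAR: aacaagagggGTCAAGTGACacaaccagct

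The core words of 3 further members, ATP6V0E2, ATP6V1F and ATG7, are shown as examples of a core close upstream of the start. The remaining members with a core are not shown. The word shown for ATP6V0E2 lay at chr7:149571000-149571029, that for ATP6V1F at chr7:128502843-128502872 and that for ATG7 at chr3:11314004-11314033, all on the plus strand. Their centres lay 43, 52 and 64 bases upstream of the start. Another core word of ATP6V0E2, centred 7 bases downstream of the start, is not shown.
ATP6V0E2 core: atcaggagatGCGCGTGCGCggcccggccc
ATP6V1F core: tgggaggactGCGCATGCTCgaagggtggg
ATG7 core: ctgctcctttGCGCACGCGCgccgcttccc

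Most of the family had an NRF-1 peak at the promoter, defined as 1 kb on either side of any protein-coding transcript start. In siControl, 34 of 41 members had one (82.9%, exact 95% interval 67.9 to 92.8%), beside 61.1% of all coding genes. In siAATF, 33 of 41 had one (80.5%, 65.1 to 91.2%), beside 60.7%, and 33 of 41 had one in both lists, beside 59.5%. Intervals here cover counting error only, and members are not replicates of a condition. With peaks restricted to a −log10 q of at least 5, 29 members kept a peak in siControl, beside 51.4% of coding genes, and 29 in siAATF, again beside 51.4%.

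By isoform class, all 30 members classed as ubiquitous had a promoter peak in siControl (100%, 88.4 to 100%), beside the 61.1% of all coding genes, and 29 of 30 in siAATF (96.7%, 82.8 to 99.9%), beside 60.7%. Of the 8 members classed as tissue-restricted, 2 had a peak in either list (25%, 3.19 to 65.1%), namely ATP6V1C2 and ATP6V1E2, and this interval includes the shares of all coding genes. The restricted count was 1 in each list at a −log10 q of at least 5, and 4 in each list when ATP6V0A1 and ATP6V0E2, enriched in brain but broadly expressed, were counted as restricted. The classes rest on general knowledge of where each isoform is expressed, and were assigned with earlier results of these data known. ATP6V0E2, ATG16L2 and ATP6V1FNB were placed in neither class, and the first pair had peaks.

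Peaks were compared between lists by percentile rank, where 0 is the weakest and 100 the strongest peak of a list, since fold enrichment is relative to the background of its own library. The lead peak of a gene is its promoter peak with the highest fold enrichment. The median rank by fold enrichment was 73.8 in siControl (95% order-statistic interval 51.1 to 84.3, 34 genes), beside 63.4 for all coding genes with a peak. In siAATF it was 76.6 (59.1 to 86.8, 33 genes), beside 64.4. Ranked by −log10 q, the medians were 69.9 and 71.9, beside 65.0 and 66.1. The intervals of all 4 medians include the matching median of all coding genes with a peak.

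**Figure D1:**
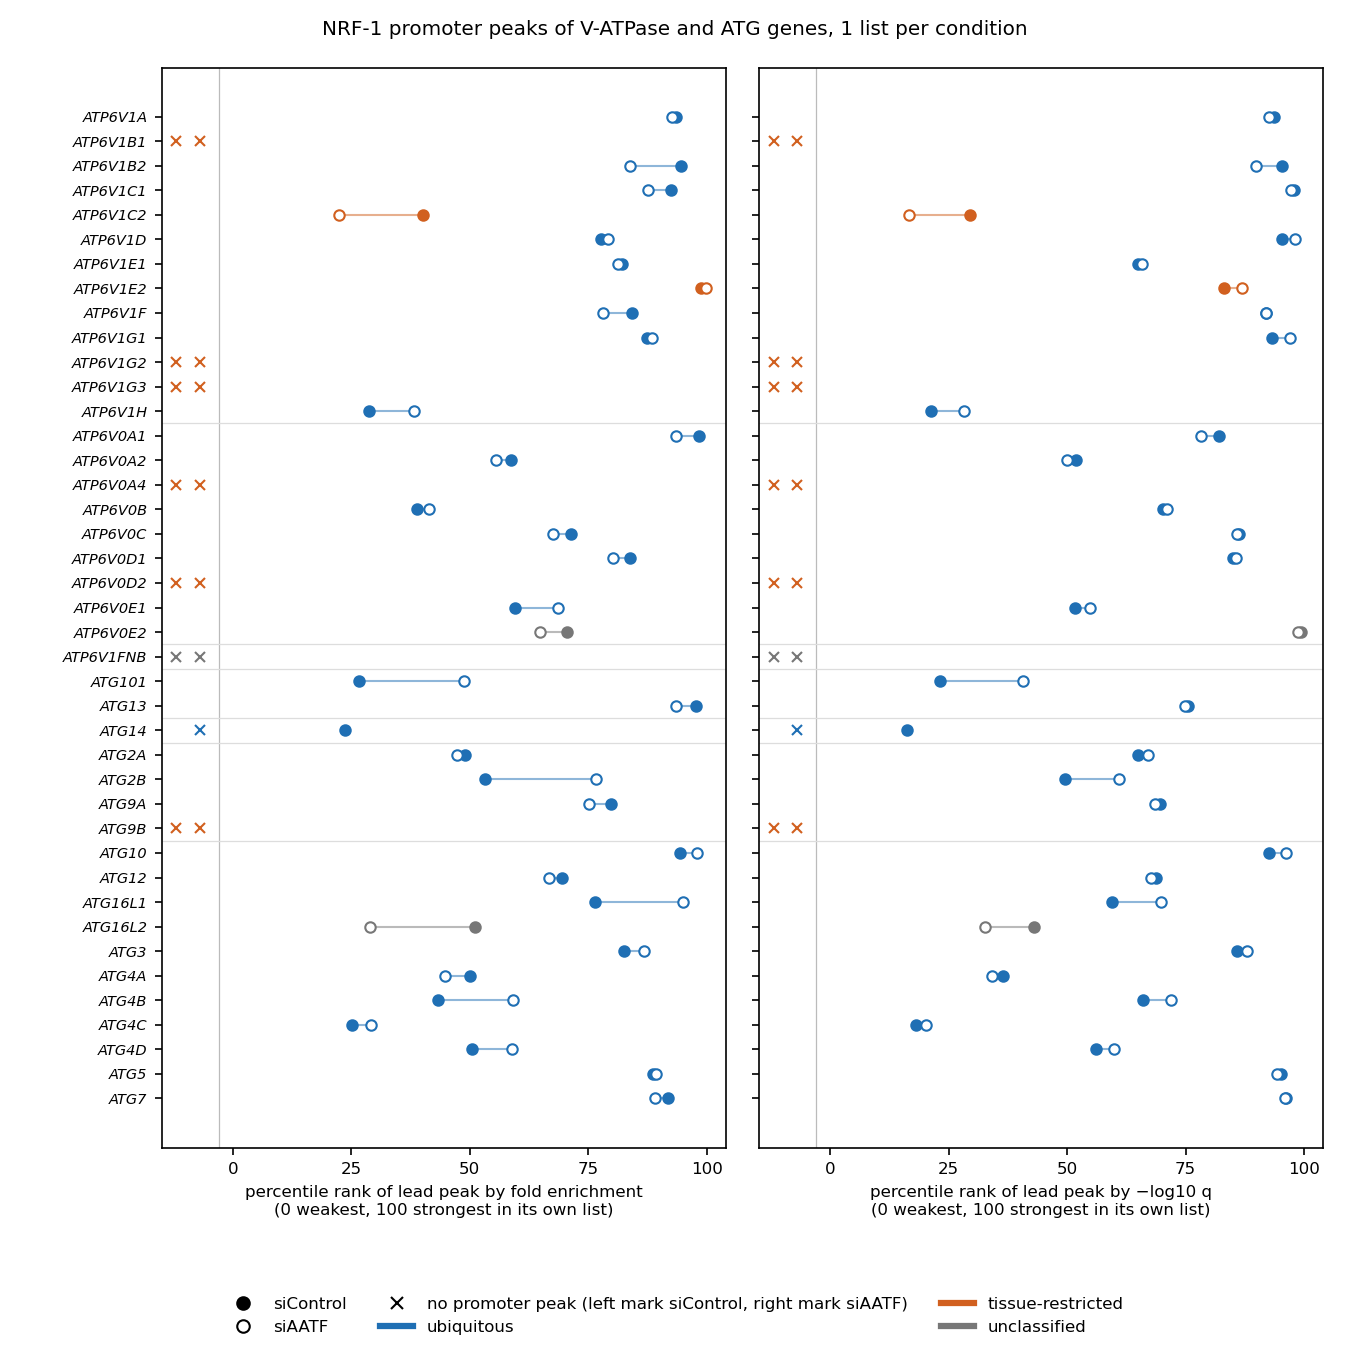
Percentile rank of the lead NRF-1 promoter peak of each of the 41 genes by fold enrichment (left) and by −log10 q (right), in siControl (filled) and siAATF (open), coloured by isoform class, with crosses for genes without a promoter peak and horizontal lines between functional groups. Of the 8 restricted genes, ATP6V1C2 and ATP6V1E2 have circles and the others crosses, and ATG14 is the gene with a peak in siControl alone.

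In the V1 sector, 10 of 13 genes had a promoter peak in each list, and the median −log10 q in siControl was 69.7, with a lowest value of 3.42 and a highest of 85.2. The nucleotide-binding B subunit has a ubiquitous isoform, ATP6V1B2, and one of kidney and inner ear, ATP6V1B1. ATP6V1B2 had a peak with a fold enrichment of 9.40 and a −log10 q of 76.5 in siControl and of 7.83 and 56.0 in siAATF. ATP6V1B1 had none, and the nearest peak lay 34395 bp from its start in siControl and 34216 bp in siAATF, at the promoter of VAX2.

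The C subunit bridges the V1 and V0 sectors. Its ubiquitous isoform, ATP6V1C1, had a fold enrichment of 9.14 and a −log10 q of 85.2 in siControl, and 8.13 and 74.5 in siAATF. The isoform of kidney and lung, ATP6V1C2, had a peak in both lists, but a weak one, with a fold enrichment of 5.17 and a −log10 q of 4.52 in siControl and 4.15 and 2.82 in siAATF. By −log10 q the ubiquitous isoform ranked at 97.8 and 97.3 and the restricted one at 29.5 and 16.7.

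The E subunit, part of the peripheral stalk, was the exception to that order. The testis isoform ATP6V1E2 had a fold enrichment of 10.4 in siControl and 10.9 in siAATF, which ranked at 98.8 and 99.9, the highest rank by fold enrichment among the members in either list. The ubiquitous isoform ATP6V1E1 had 8.15 and 7.65, ranked at 82.1 and 81.3. By −log10 q the restricted isoform again stood higher, at 44.7 and 48.9 against 17.8 and 17.2. The peak of ATP6V1E2 also covered the canonical start of RHOQ on the opposite strand, 87 bp from its own. That of ATP6V1E1 covered an opposite-strand coding start of BCL2L13, but not its canonical start, which lay 10008 bp away. Neither peak can be assigned to the subunit gene alone.

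The G subunit belongs to the same stalk and has a ubiquitous isoform and isoforms of brain and kidney. The ubiquitous ATP6V1G1 had a fold enrichment of 8.60 and a −log10 q of 71.4 in siControl, and 8.22 and 73.1 in siAATF. ATP6V1G3, the kidney isoform, had no peak, with the nearest at 381386 bp in siControl and 43755 bp in siAATF. ATP6V1G2, the brain isoform, had none either, but it lies within 5.03 Mb of chromosome 6, from 28351535 to 33378304, that held 0 peaks in siControl over 176 coding genes. The same stretch was empty in siAATF, while the lists held 16 and 18 peaks on 5 alternative haplotype sequences of chromosome 6. Whether reads of that stretch were placed on those sequences was not tested. Without it, 2 of 7 restricted members had a peak.

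The remaining V1 subunits are single-isoform genes. ATP6V1D, in the central rotor, had a fold enrichment of 7.82 and a −log10 q of 76.4 in siControl and 7.51 and 77.9 in siAATF. The lowest −log10 q of a ubiquitous V1 gene was 3.42, at the regulatory H subunit gene ATP6V1H.

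In the V0 sector, 7 of 9 genes had a peak in each list, with a median −log10 q of 42.1 in siControl, from 10.5 to 94.9. ATP6V0E2, which encodes a small membrane subunit, had the highest −log10 q of all members, 94.9 in siControl and 80.7 in siAATF. Its fold enrichment was moderate, 7.29 and 6.51, and ranked at 70.5 and 64.8, so its place among the strongest peaks depended on the measure used.

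The a subunit forms the proton path. The ubiquitous ATP6V0A2 had a fold enrichment of 6.41 and a −log10 q of 10.6 in siControl, and 5.90 and 9.25 in siAATF. ATP6V0A1, also classed as ubiquitous, had 10.3 and 42.1 in siControl and 8.71 and 30.9 in siAATF. The kidney isoform ATP6V0A4 had no peak within 137404 bp in siControl or 137314 bp in siAATF. The d subunit links the rotor to the membrane ring, and its ubiquitous form, ATP6V0D1, had 8.29 and 49.2 in siControl and 7.59 and 46.2 in siAATF. ATP6V0D2, the form of osteoclasts and kidney, had no peak within 243196 bp in siControl and 243152 bp in siAATF. Among the members, by subunit, the restricted forms of B, G, a and d had no peak and those of C and E had one. TCIRG1, the osteoclast a subunit gene whose symbol the rule did not match, had a peak in both lists, with a fold enrichment of 4.16 and a −log10 q of 3.38 in siControl and 5.19 and 7.35 in siAATF.

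ATP6V1FNB had no promoter peak, although the gene it is named for had one. The nearest peak was that of ATP6V1F, the F subunit gene of the central rotor, 2989 bp away in siControl and 2995 bp in siAATF.

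Among the ATG genes, 17 of 18 had a promoter peak in siControl (94.4%, 72.7 to 99.9%), beside 61.1% of all coding genes. In siAATF 16 of 18 had one (88.9%, 65.3 to 98.6%), beside 60.7%. The median −log10 q of the ATG genes was 17.9 in siControl (7.47 to 29.5), beside 18.0 for all coding genes with a peak. That of the 17 V-ATPase genes with a peak was 49.2 (17.8 to 72.1). Both intervals include the 18.0 of all coding genes with a peak, and they overlap.

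Both genes of the ULK initiation complex that the rule matched, ATG13 and ATG101, had a peak in each list, beside 61.1% and 60.7% of all coding genes. ATG101 had a fold enrichment of 4.43 and a −log10 q of 3.64 in siControl, and 5.51 and 6.52 in siAATF. ATG14, which directs the PI3-kinase complex to the forming autophagosome, was the single member with a peak in 1 list alone. Its siControl peak, at chr14:55878338-55878711, was weak, with a fold enrichment of 4.29 and a −log10 q of 2.87, ranks of 23.7 and 16.1. In siAATF the nearest peak lay 36458 bp away. With 1 list per condition, whether the peak was lost in siAATF was not tested.

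Of the genes that supply membrane and lipid, 3 of 4 had a peak in each list (75%, 19.4 to 99.4%). The shares of all coding genes were 61.1% and 60.7%. The scramblase gene ATG9A had a fold enrichment of 7.97 and a −log10 q of 22.1 in siControl, and 7.24 and 19.4 in siAATF. Its restricted paralogue ATG9B, of placenta and pituitary, had no promoter peak, and the nearest lay 3699 bp away in siControl and 3599 bp in siAATF, at the promoter of ABCB8. ATG2B, a lipid transfer protein gene, had a fold enrichment of 6.04 and a −log10 q of 9.68 in siControl, and 7.33 and 14.0 in siAATF.

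The conjugation machinery attaches ubiquitin-like proteins to each other and to lipid. All 11 of its genes had a peak in each list (100%, 71.5 to 100%), beside 61.1% and 60.7% of all coding genes. In these 11 genes the −log10 q in siControl ran from 3.07 to 78.9 with a median of 18.8. That of all coding genes with a peak was 18.0. ATG7, the E1-like enzyme that activates both conjugation reactions, had a fold enrichment of 9.04 and a −log10 q of 78.9 in siControl, and 8.28 and 70.2 in siAATF. ATG5, the acceptor of ATG12, had 8.72 and 75.7 in siControl and 8.30 and 66.3 in siAATF. ATG16L1, the partner of the ATG12-ATG5 conjugate, had 7.72 and 14.2 in siControl and 8.92 and 20.6 in siAATF.

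Of the 34 members with a peak in siControl, 10 had a rank by −log10 q of at least 90 (29.4%, 15.1 to 47.5%), beside 15.8% of coding genes with a peak. Of the 33 in siAATF 9 did (27.3%, 13.3 to 45.5%), beside 16.5%, and both intervals include the share of all coding genes. The 10 were ATP6V1A, ATP6V1B2, ATP6V1C1, ATP6V1D, ATP6V1F, ATP6V1G1, ATP6V0E2, ATG5, ATG7 and ATG10, that is 6 subunits of the V1 sector, 1 of V0 and 3 genes of the conjugation machinery. ATP6V1B2 was the one below 90 in siAATF, at a rank of 89.8 after 95.3.

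The rank of most members moved little between the lists. By fold enrichment the median change, siAATF minus siControl, was −0.817 points (−3.62 to 2.45, 33 genes), beside 0.156 for all coding genes with a peak in both lists. By −log10 q it was 0.810 points (−0.750 to 2.82), beside 0.467, so the sign of the median depended on the measure. The rank by fold enrichment was lower in siAATF for 18 genes and higher for 15. Of 11774 coding genes, 5755 were lower and 6019 higher. By −log10 q, 16 members were lower and 17 higher, beside 5234 and 6540 coding genes. For 26 of 33 members the rank by fold enrichment stayed within 10 points (78.8%, beside 73.9% of all coding genes). The median absolute change was 4.23 points, beside 5.12.

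A rise of more than 20 points was seen for 2 of 33 members, ATG2B and ATG101, beside 3.65% of coding genes, and a fall of more than 20 points for 1 of 33, ATG16L2, beside 2.90%. ATG2B rose by 23.4 points by fold enrichment and by 11.4 by −log10 q, ATG101 by 22.2 and 17.6, and ATG16L1 by 18.7 and 10.4. ATP6V1C2 fell by 17.7 points and by 12.8, and ATP6V1B2 by 10.9 and 5.51. With 1 list per condition, none of these changes was set against a replicate.

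ATG16L2, a paralogue of ATG16L1, had the largest fall among the members by fold enrichment, 22.2 points, and fell by 10.3 by −log10 q, but its lead peaks in the lists were different peaks. The canonical start had a peak at chr11:72525022-72526018 in siControl, ranked at 30.6 by fold enrichment, and at chr11:72525071-72526215 in siAATF, ranked at 29.0. An internal start had a peak at chr11:72533124-72533489 in siControl, ranked at 51.1, and the matching peak in siAATF was ranked at 14.3. The change at the canonical start was thus small, and the fall belonged to the internal peak.

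**Figure D2:**
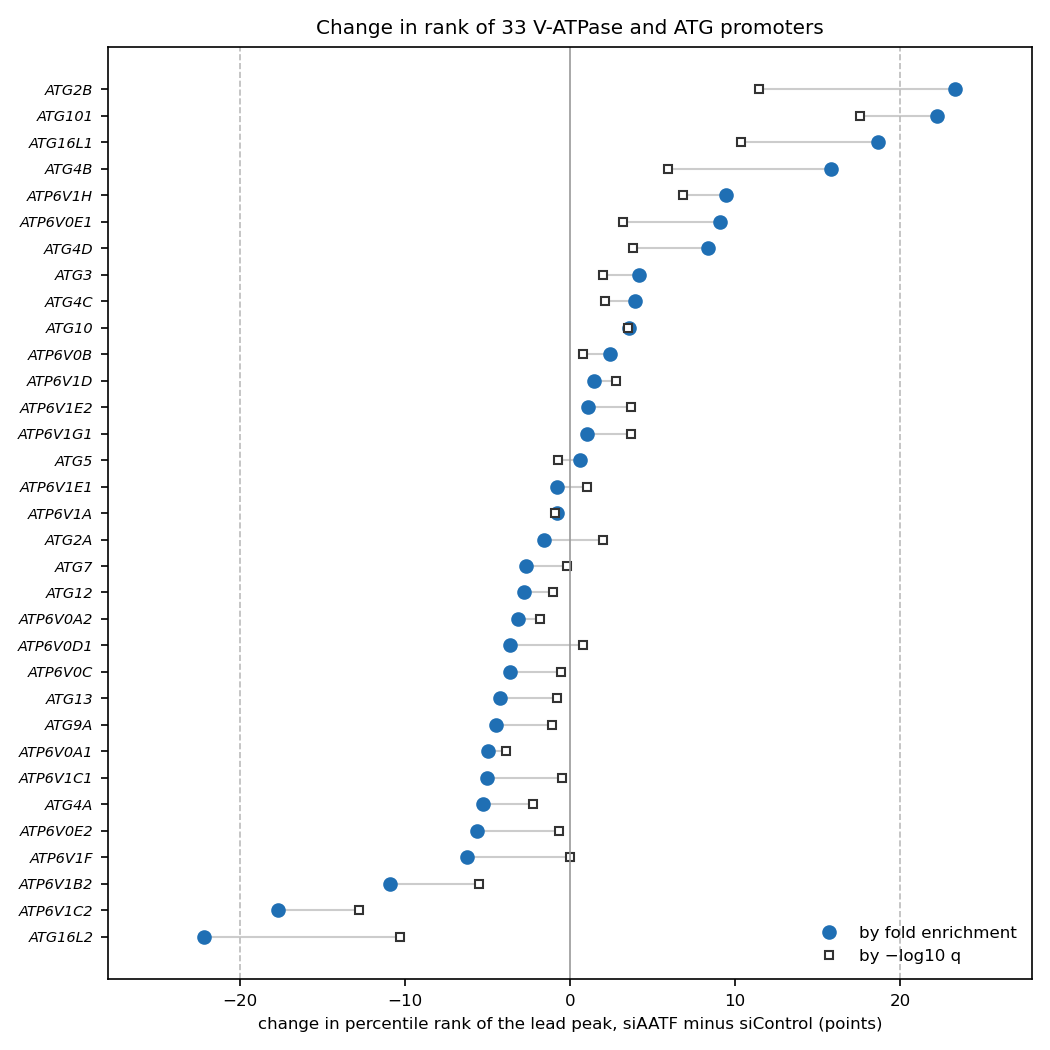
Change in percentile rank of the lead peak, siAATF minus siControl, for the 33 genes with a promoter peak in both lists, by fold enrichment (circles) and by −log10 q (squares), with dashed lines at 20 points. Most genes lie within 10 points of 0, and ATG2B, ATG101 and ATG16L2 lie past the dashed lines by fold enrichment but not by −log10 q.

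Lead peaks were selected for overlapping a promoter, so their closeness to a transcript start was largely set by that selection. The lead peak spanned the canonical start in 31 of 34 members in siControl and 31 of 33 in siAATF. Its midpoint lay within 500 bp of that start in 32 and 32. These counts describe the members only, because the matching shares of all coding genes with a peak were not computed. A coding start on the opposite strand lay under the lead peak of 12 of 34 members, beside 19.0% of coding genes with a peak. In siControl the exact 95% interval of the members' share was 19.7 to 53.5%. They were 8 of 17 ATG and 4 of 17 V-ATPase genes with a peak. For ATG2A and ATP6V1E1 the start covered was not the neighbour's canonical one. ATP6V1A, the catalytic subunit gene, and ATG13, of the ULK complex, had peaks that spanned the neighbour's start (NAA50, 786 bp away, and HARBI1, 326 bp away) and not their own canonical start. The peaks of ATP6V1D and ATG4B covered the starts of EIF2S1 and THAP4, 524 and 535 bp from their own, and the core words centred 524 and 525 bases upstream in these genes lay at about the same distance from the member's own start as the neighbour's start.

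**Figure D3:**
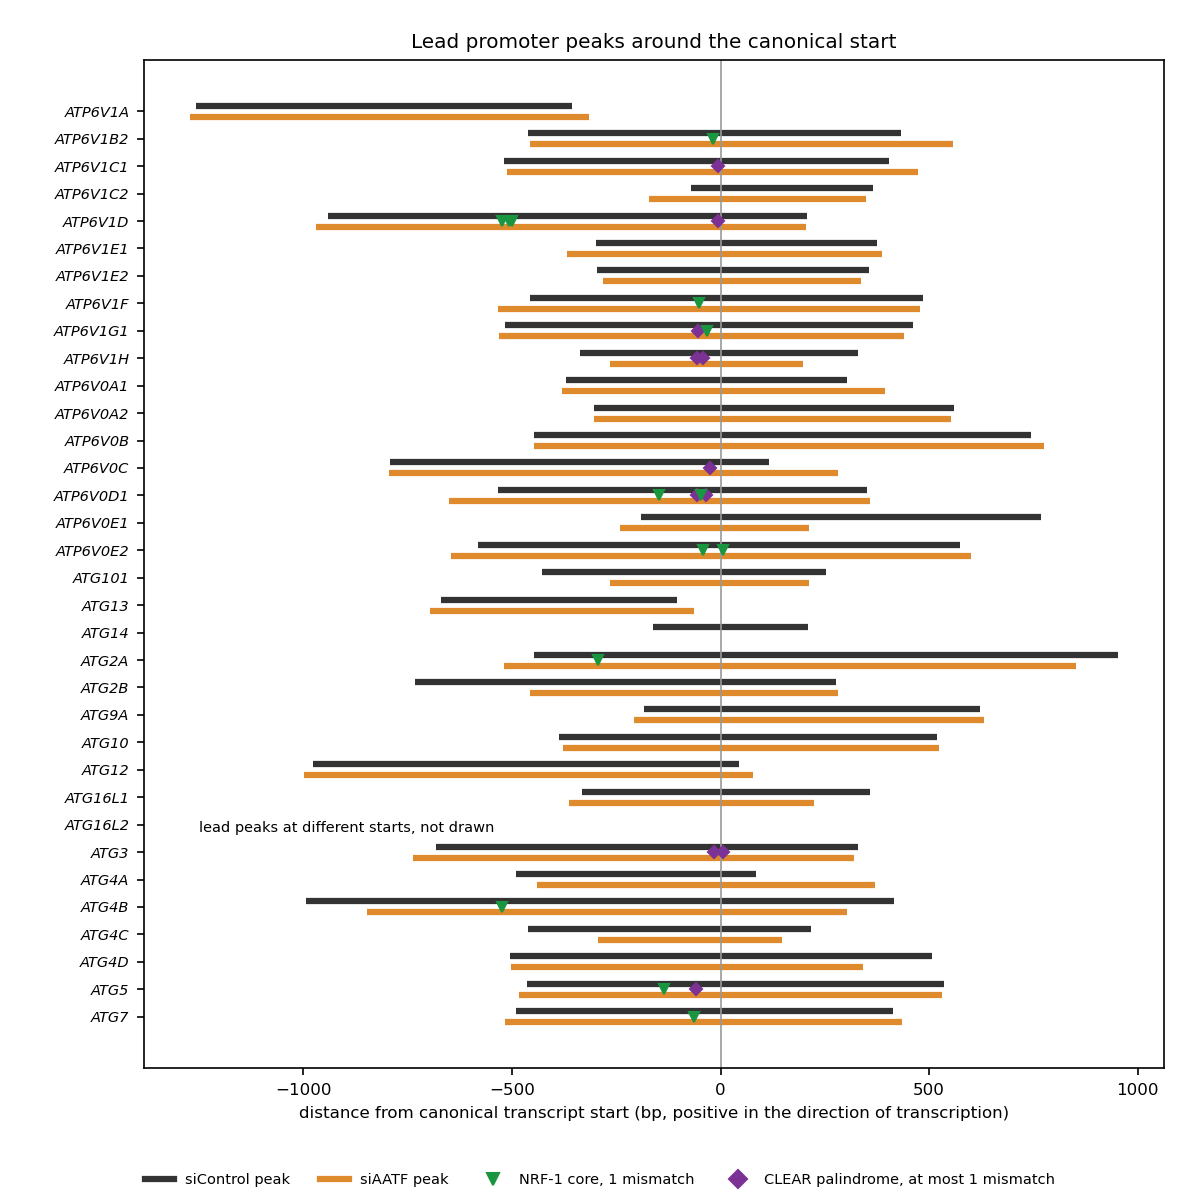
Extent of the lead promoter peak in siControl (dark) and siAATF (orange) relative to the canonical start of the members with a siControl peak, with triangles for the NRF-1 core and diamonds for the CLEAR palindrome inside the siControl peaks. Most bars cross 0, those of ATP6V1A and ATG13 lie upstream of it, and ATG16L2 is not drawn because its lead peaks are at different starts.

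The NRF-1 core with up to 1 mismatch was in a promoter peak of 10 of 34 members in siControl, beside 24.4% of coding genes with a peak. None of the 34 held the exact word. A control palindrome with the same base composition, CGGCA followed directly by its reverse complement, was found in 1 of 34 members, beside 4.07%, and the looser word GCGC, any 2 bases, GCGC in 11 of 34, beside 31.8%. The members with a core had a median −log10 q of 73.6 in siControl (lowest 17.9, highest 94.9, 10 genes), and those without had 16.0 (lowest 2.87, highest 85.2, 24 genes), so the ranges overlapped. At ranks by −log10 q of at least 90, 7 of 10 members held a core, and below 90 it was 3 of 24. Over all coding genes with a peak, the shares were 84.8% and 13.1%. The members at ranks of at least 90 without a core were ATP6V1A, ATP6V1C1 and ATG10.

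The CLEAR palindrome with up to 1 mismatch was within 500 bp of the canonical start in 9 of 41 members (22.0%, 10.6 to 37.6%), beside 3.95% of 19513 coding genes with sequence around a canonical start. By class these were 9 of 30 ubiquitous and 0 of 8 restricted members, and the difference between the classes was not tested. By symbol they were 7 of 23 ATP6V and 2 of 18 ATG genes. The exact palindrome was found in 1 of 41, ATP6V1G1, beside 0.723%. The plain E-box CACGTG, which is contained in the exact CLEAR palindrome, was found in 10 of 41, beside 18.3%. The core and the CLEAR palindrome were both in promoter peaks of 4 of 34 members, beside 1.49% of coding genes with a peak, and these were the 4 whose sequences stand above.

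CpG content separated the members with and without peaks. The CpG observed/expected ratio within 500 bp of the canonical start compares the CpG dinucleotides found with those the base composition would give. It ran from 0.0803 at ATP6V1G3 to 0.319 at ATP6V1FNB in the 7 members with no peak in either list, and from 0.575 at ATP6V1A to 1.10 at ATG4B in the 34 others. The restricted isoforms with peaks, ATP6V1C2 and ATP6V1E2, had 0.841 and 0.879, within the range of the ubiquitous members, whose median was 0.783. The restricted members had a median of 0.208.

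Set against all coding genes of like CpG content, in classes whose limits were chosen after the values had been seen, members fell into the lowest and the upper classes and none between 0.35 and 0.55. Below 0.35, 0 of 7 members had a peak, beside 9.78% of 4317 coding genes in siControl and 9.34% in siAATF. From 0.55 to 0.75, 13 of 13 members had a siControl peak and 12 of 13 a siAATF peak, beside 71.9% and 71.5%. At 0.75 and above, 21 of 21 had one in each list, beside 87.5% and 86.9%. At 0.75 and above, 2 of 2 restricted and 17 of 17 ubiquitous members had a peak in each list. Below 0.35, 0 of 6 restricted members had one, and no ubiquitous member lay there. These restricted members include ATP6V1G2, which lies in the stretch of chromosome 6 that held 0 peaks. With 2 restricted members in the upper class and no ubiquitous member in the lowest, isoform class and CpG content cannot be told apart.

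**Figure D4:**
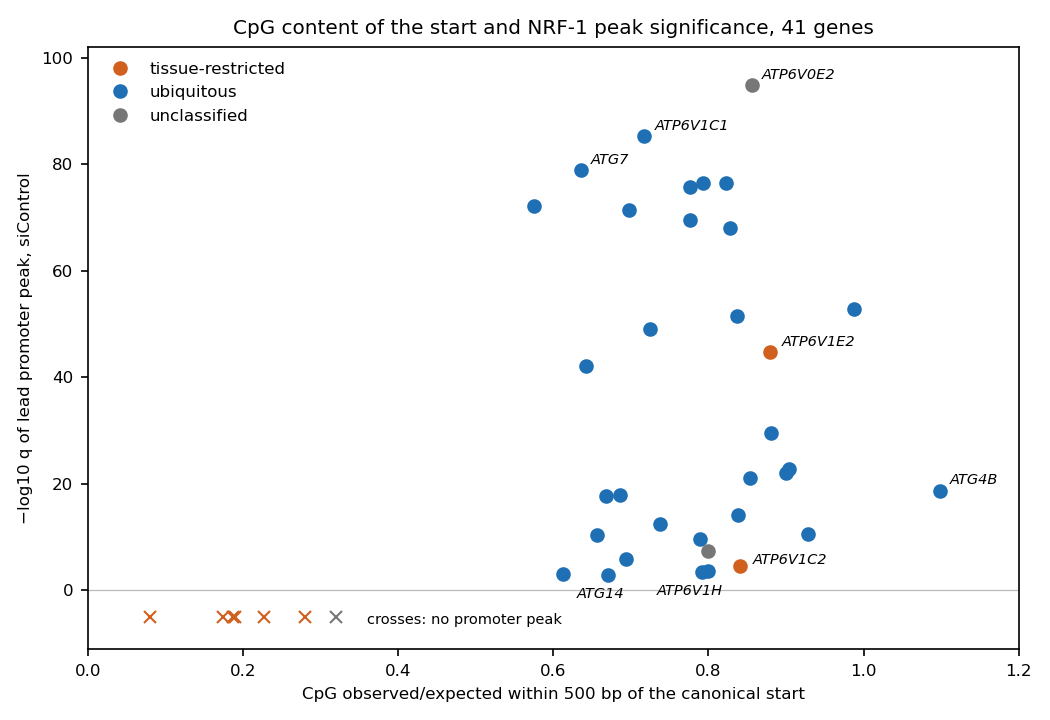
CpG observed/expected ratio around the canonical start against the −log10 q of the lead siControl peak for the 41 genes, coloured by isoform class, with crosses below 0 for genes without a promoter peak. The 7 crosses, which include ATP6V1G2 in the stretch of chromosome 6 without peaks, lie at ratios up to 0.319. No gene with a peak lies below 0.575.

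The other genes of the pathway were described from 6 lists of 45 genes whose symbols the rule did not match. A promoter peak was found for 39 of 45 in siControl and 41 of 45 in siAATF, against the same backgrounds of 61.1% and 60.7%. V-ATPase subunits and assembly factors with other symbols had peaks in 10 of 12 and then 11 of 12, genes of the ULK and PI3-kinase complexes in 9 of 10 in both lists, and PI3P effectors and membrane proteins in 8 of 8. The cargo receptors had them in 5 of 5 and the lysosomal transcription factors in 3 of 3.

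The ubiquitin-like LC3 and GABARAP genes, whose products are attached to the autophagosome membrane, had a peak in 4 of 7 in siControl (57.1%, 18.4 to 90.1%) and 5 of 7 in siAATF (71.4%, 29.0 to 96.3%), intervals that include the share of all coding genes. MAP1LC3C and GABARAP had no promoter peak in either list, and MAP1LC3B2 had one in siAATF alone, at a rank by −log10 q of 0.244. GABARAP lacked a peak with a CpG ratio of 0.848, and so did PIK3R4, the regulatory subunit gene of the PI3-kinase complex, at 0.721. Conversely, TCIRG1 had its peaks in both lists at a ratio of 0.498, and MAP1LC3B2 its siAATF peak at 0.378. Both ratios lie between 0.35 and 0.55, where 27.5% of coding genes had a peak in siControl and 27.6% in siAATF. RNASEK, a V-ATPase-associated gene, had no peak in either list, and WDR7, whose product is a V-ATPase-associated protein, had one in siAATF alone, at a rank by −log10 q of 21.0.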

How the data were processed

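NRF-1 ChIPmentation libraries of U251 cells were aligned to hg19 with Bowtie2, and broad peaks were called with MACS2 in a pipeline made for ATAC-seq, run with defaults. No input or IgG was named, and although duplicates were described, pooling was not stated. The deposited fold enrichment is a ratio over local background. The −log10 p and −log10 q, the display score and the peak positions were likewise deposited by the authors. Only fold enrichment, −log10 q and positions were used.

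Members, isoform classes and related lists were chosen with earlier results of these data known. Promoters, ranks, motifs and CpG ratios were computed with Python 3.11.15, numpy 2.4.6, pandas 2.3.3, pysam 0.24.0 and scipy 1.17.1, which gave exact Clopper-Pearson intervals, and the scripts were tested on simulated data. Values in full are given for members lacking a peak, restricted isoforms and counterparts, the 6 highest −log10 q in siControl, and the 3 largest rises and falls in rank. Members named for a motif, a neighbouring start, a rank of at least 90 or an extreme value, and ATP6V0A1 and TCIRG1, were chosen after their values were seen. An exact core, a further criterion, was found in none. Alternatives were a −log10 q of at least 5, promoters of 500 bp and 2 kb, canonical starts, ranking by −log10 q, exact words, a CLEAR window of 250 bp and other isoform classes. Leaving out ATP6V1G2, using only overlapping lead peaks and the looser core word were added after seeing the data.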

Additional observations from a re-analysis of the deposited data

How the results depend on the processing

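Of 54 values of 11 results under an alternative, 48 did not move by more than 1.5 times for a count or past the interval for a median. The count of tissue-restricted members with a peak went from 2 to 1 in each list at a −log10 q of at least 5, where ATP6V1C2 dropped out, and to 4 in each list when ATP6V0A1 and ATP6V0E2 were counted as restricted. The count of members with a core went from 10 to 0 for the exact word, and that with a CLEAR palindrome from 9 to 1. The median change in rank by fold enrichment, −0.817 points, was −2.55 at a −log10 q of at least 5 and 0.810 when ranked by −log10 q. Depth was unknown, and peaks near the calling threshold, such as that of ATG14, are the ones it would limit. No paired analysis was possible because each condition had 1 peak list.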
